A study of Mus musculus with 4 samples.

Results

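CTCF binding was mapped across the mouse beta and alpha globin loci by chromatin immunoprecipitation and sequencing (ChIP-seq) of heart tissue. The sites were the peak summits of the conservative list, the thresholded list of peaks matched between pools, from the first to the last gene of each cluster plus 150 kb on each side. By this rule 31 of the 54309 summits of that list were taken, 6 in the beta window and 25 in the alpha window. The 7 member genes are Hbb-bt, Hbb-bs, Hbb-bh1 and Hbb-y in the beta cluster and Hba-x, Hba-a1 and Hba-a2 in the alpha cluster.

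The animals were adult B6CASTF1/J females, 2 months old, which are first-generation hybrids of the inbred strains C57BL/6J and CAST/EiJ. Pool G (biological replicate 2) and pool H (biological replicate 1) each combined 2 heart samples, and each pool was sequenced as 2 technical libraries. All libraries came from 1 tissue, and no treatment or genotype was compared, so the values below are descriptions with no test. The tissue label cannot be checked from peak lists, and a whole heart contains many cell types, including blood cells.

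CTCF is a zinc-finger protein that binds a long, directional DNA motif and stops the cohesin ring as it extrudes chromatin loops, so the strand of a motif matters for which sites pair. The beta cluster encodes the beta-like chains of haemoglobin, is controlled by a locus control region upstream of the embryonic gene Hbb-y, and lies among olfactory receptor genes. The alpha cluster encodes the alpha-like chains, and its red cell enhancers lie upstream of Hba-x, partly inside introns of the neighbouring gene Nprl3. Both clusters are expressed mainly in red cells and their precursors, and CTCF sites at their borders are known from mouse erythroid cells.

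Positions are on mm10 and are given in kb from the start site of the embryonic gene of the cluster, Hbb-y or Hba-x, counted as positive in its direction of transcription. The beta genes run on the minus strand of chromosome 7 from Hbb-y to Hbb-bt, over 40.7 kb (chr7:103812524-103853216). The alpha genes run on the plus strand of chromosome 11 from Hba-x to Hba-a2, over 20.9 kb (chr11:32276400-32297298). The negative side is therefore the side of the locus control region or the enhancers in both windows, and the positive side beyond the last gene is called the far side. Motif strands are those of the chromosome.

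The sequences shown are those around the motif at the beta sites that have one and at the alpha sites that the results turn on. Each is 28 bases of the GRCm38.p6 reference, read 5′ to 3′ on the strand of the motif, and the capitals mark the 12-base core of the CTCF motif with at most 1 mismatch within 100 bp of the summit. The animals carry a CAST/EiJ copy as well, whose sequence was not used here.
beta +141.0 kb, plus strand, chr7:103712179-103712206: ggggatagCCACTAGAGGGTgccagaca
beta +60.1 kb, plus strand, chr7:103793086-103793113: gttgcataCCAGTAGGGGGCagaagtgt
beta +46.1 kb, minus strand, chr7:103807066-103807093: tcagtcaaCCTCAAGGGGGCagtattga
beta −60.0 kb, minus strand, chr7:103913172-103913199: tagtgtagCCACCAGGGGGAaggggtaa
beta −89.7 kb, minus strand, chr7:103942935-103942962: agatgtgaCCAGGAGAGGGCagcagagg
alpha −144.0 kb, minus strand, chr11:32132395-32132422: taaagaggCCAGAAGAGGGCataggata
alpha −135.2 kb, plus strand, chr11:32141206-32141233: ctttccgtCCACCAGGGGGAgtgagtga
alpha −37.7 kb, minus strand, chr11:32238649-32238676: ccctgaggCCACCAGAGGGTagcagagg
alpha +9.7 kb, plus strand, chr11:32286039-32286066: cagacaaaCCAGAAGAGGGCatcagata
alpha +10.5 kb, minus strand, chr11:32286926-32286953: acaagaggCCGCCAGGGGGCgctgcatc
alpha +23.6 kb, minus strand, chr11:32300031-32300058: acaagaggCCGCCAGGGGGCgctgcatc
alpha +45.0 kb, minus strand, chr11:32321387-32321414: tatagtggCCTGCAGGGGGCgccccaga
alpha +66.6 kb, plus strand, chr11:32342934-32342961: tacaccagCCTGCAGGGGGCaccatgga

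No summit lay at a member gene. No conservative summit stood in the body of any of the 7 members or up to 1 kb from one of their transcription start sites (TSS), while 34.6% of 21911 protein-coding genes had a summit at that distance from a TSS. The nearest summits were 5.44 kb from the end of Hbb-bt, 20.0 kb upstream of Hbb-y and 1.59 kb beyond Hba-a1. Promoter windows of 300 bases from RefSeq on GRCm38.p6 were found for 6 of the members, all but Hbb-bh1, and 0 of these 6 held the core on either strand with at most 1 mismatch. Over all such promoter windows, 8.38% of 32851 held it.

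The beta window held 6 summits in 341 kb, or 17.6 per Mb, against 19.9 per Mb over chromosomes 1 to 19, X and Y. Genome tiles of the beta window's length held a median of 5 summits, with quartiles of 1 and 11. The beta cluster was therefore near the genome's usual density, and its summits stood 3 on each side of the genes with 0 on the gene span. All 6 were intergenic, a class whose share over the conservative list was not counted. Each had a summit within 100 bp in the pool G list, the pool H list and the second thresholded list of both pools. Of all conservative summits 90.5%, 87.9% and 96.5% had one there.

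The stretch of 66.2 kb without a summit that contains the 4 beta members ran from +46.1 kb to −20.0 kb. The +46.1 kb site, beyond the adult gene Hbb-bt, had the highest signal of the window at 495, which was the 68.1st percentile of the list. The signal is the score that the authors' peak caller gave each peak, without a stated unit, and it grows with depth. Levels are compared within a list, and the values of pool G and pool H are set side by side as a description, with their ratio read against the median ratio of all summits. In the single-pool lists the same site had a signal of 254 in pool G and 236 in pool H.

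The −20.0 kb site, the nearest on the locus control side, had a signal of 307, with 172 in pool G and 136 in pool H. It had no core within 100 bp even when 2 mismatches were allowed, a limit that 89.8% of all conservative summits met. Within 100 bp of it the sequence was 30.8% G or C, against a median of 48.3% over the list. In the second list of both pools a weaker summit stood at −21.4 kb, with a signal of 48.1, which was under the threshold in the conservative comparison.

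Farther out on the locus control side, the −60.0 kb site had a signal of 202 and the −89.7 kb site a signal of 484. The −60.0 kb site was the only beta site with a lower signal in pool G than in pool H, 96.4 against 105. The −89.7 kb site had 256 in pool G and 232 in pool H, close to those of the +46.1 kb site. On the far side the +60.1 kb site had a signal of 184, with 112 in pool G and 72.7 in pool H. The +141.0 kb site was the weakest, at 99.0, with 51.0 in pool G and 45.4 in pool H. The median signal of the 6 sites was 255 and their median percentile 45.7, against a median signal of 286 over the list.

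Of the 6 beta sites, 5 had the core, against 66.1% of all conservative summits, and 2 had it without a mismatch, against 33.0%. The strands, read along the chromosome from +141.0 kb to −89.7 kb, were plus, plus, minus, none, minus and minus. Both sites with a core on the locus control side were thus on the minus strand, as was the +46.1 kb site, so the sites with a core nearest to the genes on either side faced the same way. The only neighbours whose cores pointed at each other were +60.1 kb and +46.1 kb, 14012 bp apart and both beyond Hbb-bt.

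**Figure D1:**
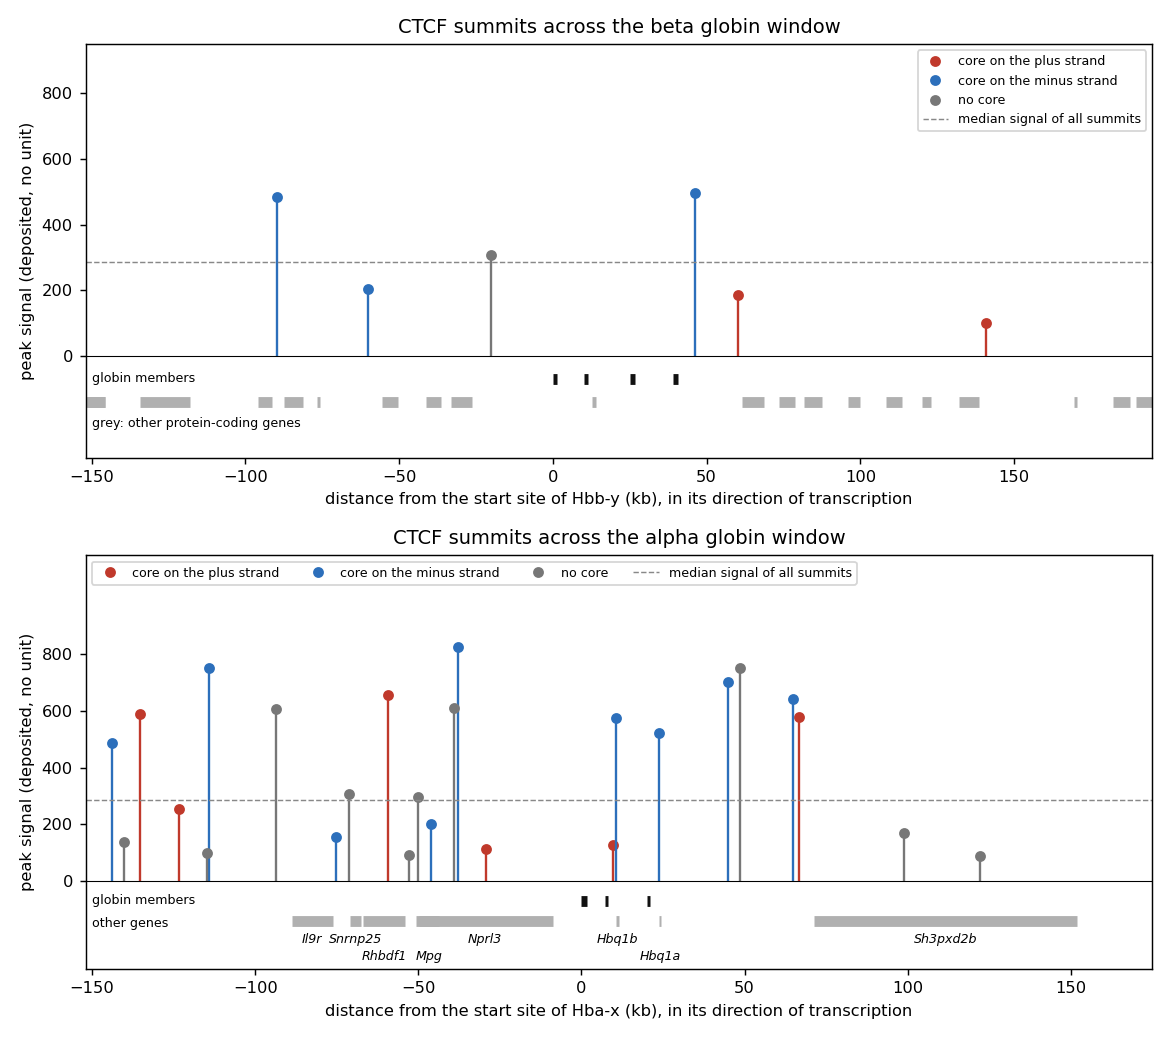
Signal of each conservative CTCF summit (vertical axis, the deposited score without a unit) against its distance in kb from the start site of Hbb-y (upper panel) or Hba-x (lower panel), coloured by the chromosome strand of the core; black bars are member genes and grey bars other protein-coding genes, and the dashed line is the list median of 286. The beta genes lie in a stretch without summits, while the alpha window holds 25 summits with the strongest, at 827, on the enhancer side.

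The olfactory receptor genes around the beta cluster were without CTCF summits at their start sites. The window held 24 protein-coding genes, of which 19 carried olfactory receptor symbols. Of the 24, 0 had a summit within 1 kb of a TSS, against 34.6% of all protein-coding genes. In the body 0 of the 24 had a summit, and the share of all genes with one there was not counted. Under the threshold, the ranked list of candidates matched between pools had 3 more peaks in the beta window. They included one in the body of Olfr243 with a signal of 29.4 and one in the body of Olfr628 with 19.8. Each of these was within 1 kb of an annotated start site, but not of the gene's main 5′ end. On the gene span itself there were 0 candidates in that list, and also 0 in the ranked lists of pool G, of pool H and of both pools. The gene span held 9 copies of the core with 1 mismatch and 0 exact copies, and none of them was at a candidate.

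The alpha window was denser, with 25 summits in 321 kb, or 77.9 per Mb, against the 19.9 per Mb of the whole list. Genome tiles of its length held a median of 4 summits, with quartiles of 1 and 10. The enhancer side held 16 summits, the gene span 2 and the far side 7. By feature, 9 were within 1 kb of a TSS, 3 in introns, 12 intergenic and 1 in an untranslated exon of Mpg. Over the whole list 20.4% of summits were within 1 kb of a TSS. The shares of the other classes over the whole list were not counted. The median signal was 487 and the median percentile 67.5, against a median signal of 286 over the list, and 15 of the 25 were at or above that median. In the lists of pool G and pool H alone the median percentile of the window's summits was 54.2 and 47.4, so the height of the window's median depended on the list.

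The strongest site of the window, at −37.7 kb, lay in Nprl3, which encodes a subunit of a complex that restrains mTOR signalling. Its signal of 827 ranked 277 of the 54309 summits, and it had 434 in pool G and 400 in pool H. Its core was on the minus strand with 1 mismatch. A second strong site stood 1.46 kb away at −39.2 kb, with a signal of 612, 343 in pool G and 268 in pool H. This neighbour had no core within 100 bp even at 2 mismatches. They lay 29 and 30.5 kb downstream of the main 5′ end of Nprl3, and both were within 1 kb of an internal start site of the gene.

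Between this pair and Hba-x only 1 conservative summit was found, at −29.1 kb in an intron of Nprl3. Its signal was 112, with 62.6 in pool G and 50.3 in pool H, and its core was on the plus strand, pointing away from the −37.7 kb site. From there to +9.7 kb no conservative summit stood over 38.8 kb, a stretch that holds Hba-x and Hba-a1 and was the longest gap of the window. The length of this gap depended on the list. At the main promoter of Nprl3, −9.0 kb, the second list of both pools had a summit with a signal of 72.4, and the pool G list had one with a signal of 51.0.

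The remaining 13 sites on the enhancer side included the start sites of several neighbours. The summit at −71.3 kb was 293 bp upstream of Snrnp25, a gene of the minor spliceosome, with a signal of 306, 181 in pool G and 124 in pool H. The summit at −50.1 kb lay at −182 bp from the start of Mpg, which encodes a DNA glycosylase of base excision repair, with a signal of 298, 173 in pool G and 125 in pool H. Neither had the core with at most 1 mismatch. The summit at −59.4 kb lay in Rhbdf1, an inactive rhomboid gene, 280 bp downstream of an internal start site and not at the gene's main 5′ end. It did have the exact core, on the plus strand. Its signal was 657, with 360 in pool G and 299 in pool H.

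At −75.2 kb a weaker summit stood at −903 bp from the start of Il9r, the receptor gene of an interleukin, with a signal of 154, 83.0 in pool G and 72.1 in pool H. It overlapped soft-masked (repeat) sequence, and some of the 36-base words within it occurred as many as 3388 times in the genome. Farther out, 7 sites between −144.0 and −93.7 kb had signals of 99.4 to 751, and all were intergenic. The strongest of these, at −114.0 kb, had the exact core on the minus strand, with 387 in pool G and 367 in pool H. The 2 sites not yet described, at −52.9 kb and −46.0 kb, had signals of 90.7 and 202.

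Both of the alpha sites that were absent from several thresholded lists were strong. The irreproducible discovery rate (IDR) was deposited as a scaled score in which 540 stands for 0.05, the threshold of the lists. All 31 sites had the highest scaled score, 1000, in the conservative list, as did 93.6% of its summits. The −37.7 kb site reached 1000 in the conservative comparison but 224 in pool G, 456 in pool H and 78 in the second comparison of both pools, so it was absent from those 3 thresholded lists. The −114.0 kb site likewise had 1000 in the conservative comparison, 893 in pool G, 483 in pool H and 345 in the second comparison. Both were present as candidates in every ranked list, with signals of 367 or more in each single pool. The weak −52.9 kb site was missing from the pool G list alone, with a scaled IDR of 72.

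Across the genome, candidates of the highest signal often failed the threshold as well. Among the top 0.1% of candidates by signal, 24.1% passed in the ranked list matched between pools, 9.52% in the second list of both pools, 11.5% in pool G and 14.8% in pool H. In the band between the top 0.1% and the top 1% the shares that passed were 81.5%, 46.7%, 56.0% and 55.2% in the same order of lists, and between the top 5% and the top 10% they were 99.9% to 100%. In pool G and pool H the −37.7 kb site fell in the band between the top 0.1% and the top 1%. The −114.0 kb site fell between the top 1% and the top 5% in both pools. In that band 99.7%, 93.2%, 91.9% and 91.6% passed in the same order of lists. Its absence from the pool H list was therefore not the usual outcome for its band. Absence of the window's strongest site from 3 thresholded lists therefore went with a high signal, not a low one. Why strong candidates had high rates was not tested.

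**Figure D2:**
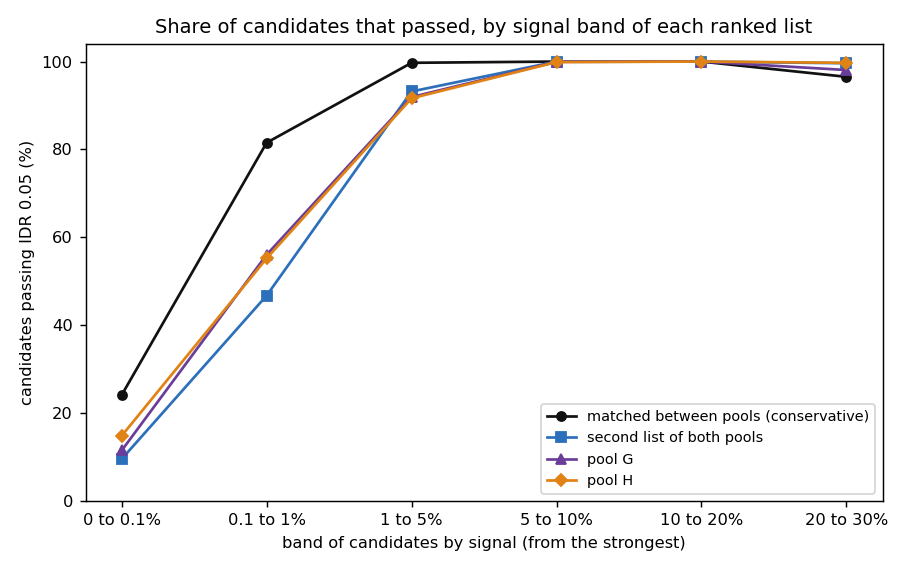
Percent of candidates that passed an IDR of 0.05 (vertical axis) in bands of signal from the strongest down (horizontal axis), for each of the 4 ranked lists. Of the strongest 0.1%, between 9.52% and 24.1% passed, while nearly all candidates from 5% to 20% passed.

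The gene span of the alpha cluster held 2 summits, and another summit lay just beyond it. All 3 were within 1 kb of the start sites of the theta-like globin genes Hbq1b and Hbq1a, which lie after Hba-a1 and after Hba-a2. The +10.5 kb summit was 19 bp upstream of Hbq1b and had a signal of 575, with 316 in pool G and 261 in pool H. The +23.6 kb summit was 20 bp upstream of Hbq1a and had a signal of 522, with 296 in pool G and 225 in pool H. Both were in all 4 thresholded lists. The cluster carries the alpha and theta-like genes as a duplicated pair, and these summits were 13.1 kb apart. Centred on the core and compared position by position without gaps, their sequences differed at 0 of 28 bases, 2 of 100, 15 of 400 and 199 of 1000. Inserted or deleted bases shift the positions, so the count over 1000 may overstate the base changes. Their cores were the same word on the same strand, with 1 mismatch, at position 3 counted from 1 at the 5′ end of the core.

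Because these copies are so alike, reads may be placed at either one. Of the 36-base words within 100 bp of the summits, 55.4% at +10.5 kb and 56.6% at +23.6 kb occurred once in the reference genome. At 100 bases the share was 94.1% at both. The read length was not stated in the labels or files, and the share of reads that could be placed at 1 copy was not tested.

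A second duplicated site near the same genes differed between its copies. The +9.7 kb summit, 906 bp upstream of Hbq1b, had a signal of 128, with 68.8 in pool G and 54.3 in pool H, and an exact core on the plus strand in soft-masked sequence. An identical 28-base copy lies at chr11:32299062-32299089, at +22.7 kb, on the side of Hbq1a. There the candidate had a signal of 45.8 in the list matched between pools, with 31.2 in pool G and 11.7 in pool H, and its scaled IDR of 67 was under the threshold. Unique 36-base words made up 27.1% of those within 100 bp of the +9.7 kb summit and unique 100-base words 79.4%.

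The far side of the alpha genes held a further group of strong summits before the gene Sh3pxd2b, which encodes a podosome adaptor protein. The +45.0 kb site had a signal of 701, with 370 in pool G and 331 in pool H. The +48.5 kb site, 3.47 kb away, had 751, with 391 in pool G and 364 in pool H, and no core with at most 1 mismatch. The +64.9 and +66.6 kb sites, 1.64 kb apart, had signals of 643 and 577 and cores on opposite strands, pointing away from each other. The last 2 sites, at +98.8 and +122.2 kb in introns of Sh3pxd2b, were weak. They had signals of 170 and 89.2 and no core with at most 1 mismatch. The 5 strongest far-side sites were thus all between +23.6 and +66.6 kb.

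Over the alpha window 15 of 25 summits had the core, which was near the 66.1% of the whole list, and 5 had it exactly, against 33.0%. Summits with the core had a median signal of 575 and those without it 234; over the whole list the medians were 361 and 193. The sites at −39.2 kb (612), −93.7 kb (606) and +48.5 kb (751) were strong without a core at 1 mismatch. With 2 mismatches allowed, those at −93.7 and +48.5 kb had one and that at −39.2 kb did not. Of the 15 cores 6 were on the plus strand and 9 on the minus strand, while over the whole list 49.8% were on the plus strand. The core was on the minus strand at +10.5, +23.6, +45.0 and +64.9 kb, a run of 4 cores from Hbq1b outward. These cores pointed toward the enhancer side. Across the gap that contains Hba-x and Hba-a1 the cores at −29.1 and +9.7 kb were both on the plus strand, and the next sites outward, at −37.7 and +10.5 kb, were stronger and both on the minus strand.

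Among the 14 neighbouring pairs of cores in the alpha window, 3 pointed at each other, 4 away from each other and 7 the same way; over the whole list 24.1% of pairs pointed at each other and 51.9% the same way. In the beta window the 4 pairs were 1 pointing at each other and 3 the same way. The alpha counts were near the shares of the whole list, and 4 pairs are too few to compare. With a position weight matrix in place of the core, 5 beta sites and 11 alpha sites had a match, against 46.5% of all summits. The strand was the same at 5 of 5 and 11 of 11 sites. The matrix was started from exact copies of the same core, so this agreement was largely fixed in advance and is no independent check. The alpha sites at −135.2, −123.4, −46.0 and −29.1 kb had a core but no matrix match. Their strands, including that at the edge of the gap before Hba-x, rest on a core with 1 mismatch alone.

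In all, 4 core words were each shared by a pair of sites, and the signals within a pair were close in some and far apart in others. The word shared by +10.5 kb (575) and +23.6 kb (522) in the alpha window had the closest signals. A different word stood both at −60.0 kb in the beta window, with a signal of 202, and at −135.2 kb in the alpha window, with 588. A further word was shared by −144.0 kb (487) and +9.7 kb (128) in the alpha window, both exact cores in soft-masked sequence. Another was shared by +45.0 kb (701) and +66.6 kb (577). The flanking bases differed in the pairs other than that at +10.5 and +23.6 kb, as the sequences above show, and their part in the signal was not tested.

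Most copies of the core in the windows carried no summit. In the beta window both exact copies were at a conservative summit, and 3 of 54 copies with 1 mismatch were. In the alpha window 5 of 22 exact copies and 12 of 102 copies with 1 mismatch were at a conservative summit. Over the genome 23.5% of 76898 exact copies and 4.59% of 485203 copies with 1 mismatch were. On the far side of the alpha genes 0 of 10 exact copies were at a conservative summit, and 5 were at a candidate of the ranked list matched between pools. Of 54 copies with 1 mismatch there, 6 were at a conservative summit.

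Every site had a summit or candidate in both pools, which the matching of the conservative peaks between pools largely fixed in advance. Pool G was higher than pool H at 5 of 6 beta sites and 24 of 25 alpha sites. The median ratio of pool G to pool H over 53538 conservative summits was 1.23, so a ratio above 1 is the rule of the lists. Divided by that median, the ratios of the 31 sites ran from 0.748 to 1.26. The lowest were at −60.0 kb in the beta window, 0.748, and at −93.7 kb in the alpha window, 0.796, with 300.3 in pool G and 307 in pool H. Those 2 were below the 5th percentile of all ratios, 0.839, and 0 of the 31 were above the 95th, 1.38. With 1 value for each pool no difference between pools can be tested.

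**Figure D3:**
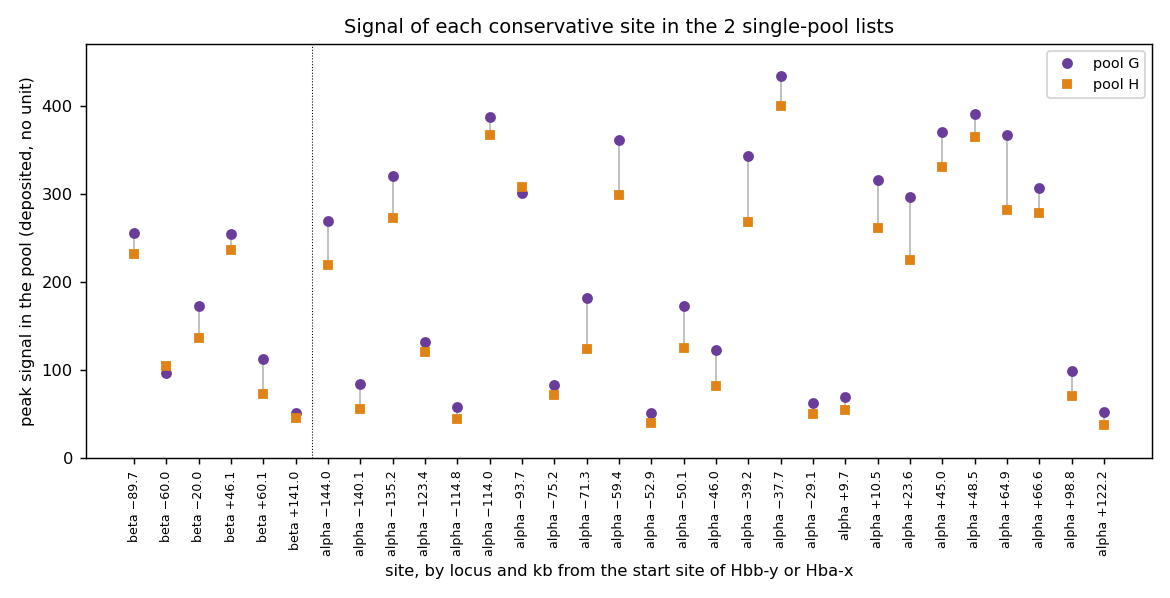
Signal of each of the 31 sites in the pool G list (circles) and the pool H list (squares), in order of distance from Hbb-y or Hba-x within each locus; grey lines join the pools and the dotted line parts beta from alpha. Pool G is higher at all sites except beta −60.0 kb and alpha −93.7 kb.

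The absence of summits on the genes has to be read with how much of their sequence is unique. Hba-a1 and Hba-a2, the adult alpha genes, are near-identical copies: 3.91% and 4.65% of the 36-base words that start in them occurred once in the genome, and 11.7% and 14.1% of the 100-base words. For Hbb-bt and Hbb-bs, the adult beta genes, the shares were 26.4% and 30.7% at 36 bases and 36.9% and 40.8% at 100 bases. The embryonic genes were unique, with 100% for Hbb-y and Hbb-bh1 and 96.2% for Hba-x at 36 bases. Over the whole gene spans 77.5% (beta) and 75.7% (alpha) of 36-base words were unique, so a missing summit can be read over most of each span but not within Hba-a1 or Hba-a2, and only in part within Hbb-bt and Hbb-bs.

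**Figure D4:**
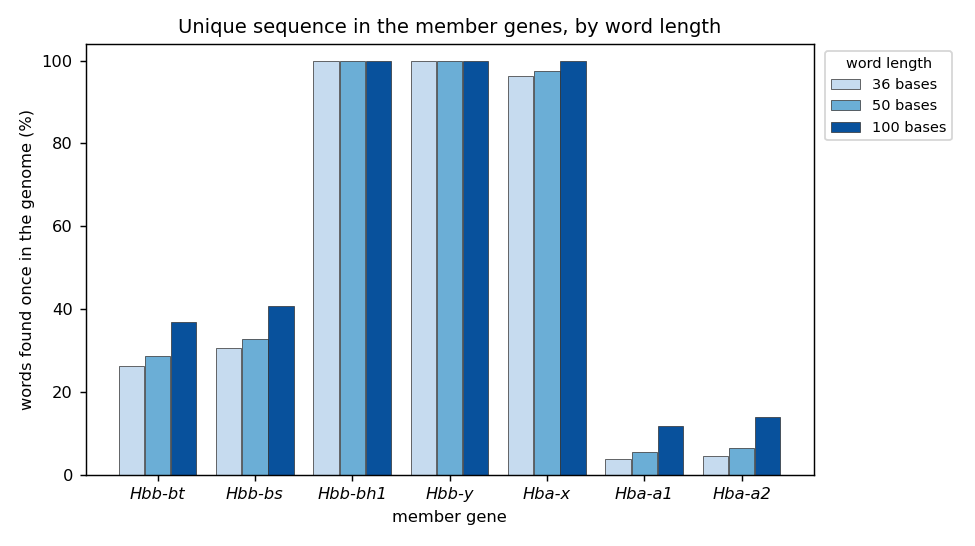
Percent of words of 36, 50 and 100 bases starting in each member gene that occur once in the reference genome, counting both strands. The copies Hba-a1 and Hba-a2 stay under 15% at each length, while the embryonic genes Hbb-bh1, Hbb-y and Hba-x are at or above 96.2%.

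Among other globin genes, Hbq1a and Hbq1b had a promoter summit and myoglobin (Mb), neuroglobin (Ngb) and cytoglobin (Cygb) had none. Of 12 erythroid transcription factor genes 7 had a summit within 1 kb of a TSS, against 34.6% of protein-coding genes. They were Zfpm1, a cofactor of the GATA factors, with a signal of 799; Gfi1b, a repressor, with 621; and Ldb1, Lyl1, Bcl11a, Lmo2 and Nfe2 with signals of 136 to 312. The genes of the erythroid master regulators Gata1, Klf1 and Tal1 had none, and neither did Myb and Runx1.

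Of 9 genes of haem synthesis 4 had a promoter summit, among them Urod (763), Ppox (725) and Cpox (274), while both genes of its first enzyme, Alas1 and Alas2, had none. Of 8 red cell membrane genes 1 had a promoter summit. Over the 34 genes of these lists 14 had a promoter summit, or 41.2%, near the share of all protein-coding genes.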

How the data were processed

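The authors deposited 8 peak lists on mm10, 4 ranked lists of all candidates and 4 thresholded by IDR, per the readme texts deposited with the samples. They made a pair from each pool and 2 pairs from both pools. Names of the aligner and peak caller were not given in the sources used here, and read depth is unknown. Each peak has the signal, a score that the authors deposited without a unit and that grows with depth, so levels are compared within a list, and between pools only as a ratio set beside the median ratio of all summits. A further score is the IDR, scaled so that 540 is 0.05 and 830 is 0.01; the ranked lists add a −log10 value of global IDR that the authors deposited and that was not used. Replicates were joined into pools before deposit, and no test was run.

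Summits were the peak start plus the deposited offset, and a match meant a summit within 100 bp. Sequence and start sites came from GRCm38.p6 and GENCODE M21, promoter sequences from RefSeq. The core was searched on both strands within 100 bp, taking the fewest mismatches and then the nearest. The matrix was started from exact matches to the core and learned outside soft-masked sequence in 3 rounds, with 4 bases added on each side. Its threshold was that passed by 1% of windows 1000 bp from summits. Promoter meant within 1 kb of any TSS. Percentiles are ranks within a list. Scripts were tested on simulated data. The genes described are the 7 members, every gene of the windows with a summit at its start or in its body, and the genes of the fixed lists with a promoter summit, apart from some that are not reported here. Mb was also fixed by the rule; other listed genes without a promoter summit and the olfactory genes with a candidate were named after their values were seen. Members and lists were chosen with earlier results of these data known. Python 3.11.15, numpy 2.4.6, pandas 2.3.3, numba 0.67.0 and matplotlib 3.10.9 were used.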

Additional observations from a re-analysis of the deposited data

How the results depend on the processing

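Of 59 alternative values for 11 results, 44 kept the main value within its limit and 15 moved. With flanks of 50 kb the beta window held 3 summits and the alpha window 11, and with the exact core 2 beta and 5 alpha summits were counted as having one. The median percentile of the beta sites was 48.7 in the second list of both pools, 52.1 with flanks of 100 kb or of 50 kb, and 46.3 to 47.2 in the lists of 1 pool alone. That of the alpha sites was 59.0 in the second list, 72.5 with flanks of 100 kb, 74.9 with flanks of 50 kb, and 47.4 to 54.2 in the lists of 1 pool alone. The matrix placed 3 alpha sites on the plus strand, since it found fewer sites than the core, and 26 of the 34 listed genes had a summit within 5 kb. The share of all protein-coding genes with a summit within 5 kb was not counted. The 26 genes therefore cannot be set beside the 34.6% found at 1 kb. The count of 0 summits on the beta gene span and of 2 on the alpha gene span held in the second list, in each pool's list and among all candidates matched between pools. In the ranked lists of pool G and of pool H the alpha gene span had 3 candidates each, 1 of them under the threshold. Counting candidates under the threshold was chosen after seeing the data. It found 6 beta and 25 alpha summits in each of the other ranked lists. The conservative peaks had been matched between pools, so finding them again in the pools was largely fixed in advance. These values are among the 44 and are no separate check of the sites.

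No paired analysis was possible because the technical replicate numbers of the labels are libraries that were joined within each pool before the lists were made. The biological replicate numbers are those of the pools themselves. Read depth and read length are unknown, so a missing summit means that no peak passed in that list and not absence of binding.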
